A study of Fukomys damarensis and Heterocephalus glaber and Mus musculus with 160 samples.

Results

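Heart-only primed enhancers are places in the heart genome that carry H3K4me1, the histone mark of enhancers, but neither H3K27ac nor H3K4me3 in heart and none of these 3 marks in liver. In naked mole-rats 8675 of 39285 heart H3K4me1 regions were of this kind, in Damaraland mole-rats 20946 of 83536, in guinea pigs 18025 of 69396 and in mice 22750 of 77735. That is 70396 of 269952 regions over the 4 species. The regions were chosen by the presence and absence of peaks in the deposited lists, each species apart. A consensus region of a tissue and mark was made from peaks that overlapped a peak of another animal by at least 50% of the shorter one, and the same overlap decided which regions shared a place. Because the rule used all 3 marks in both tissues, the numbers, widths and H3K4me1 levels below describe the regions and were not tested. Tests were kept for held-out H3K4me1 libraries. Distances, held-out H3K27ac and transcription factor shares are described.

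The study used chromatin immunoprecipitation and sequencing (ChIP-seq) of liver and heart of the naked mole-rat (Heterocephalus glaber), the Damaraland mole-rat (Fukomys damarensis), the guinea pig (Cavia porcellus) and the mouse (Mus musculus, C57BL/6J), with no treatment and no modified allele named in the labels. The animals of the histone libraries were males aged 13 to 17 months in naked mole-rats, 36 to 48 months by estimate in Damaraland mole-rats, 2.3 months in guinea pigs and 2 months in the mouse, apart from DMR6, a female of the Damaraland mole-rat. Heart H3K4me1 came from 3 naked mole-rats, 5 Damaraland mole-rats, 3 guinea pigs and 5 mouse samples, of which 1 was a pool of 3 mice. Heart H3K27ac was available for 3, 5, 3 and 6 animals or pools in the same order, and liver H3K4me1 for 5, 5, 3 and 4. In the mouse the pool alone had both heart H3K4me1 and heart H3K27ac. By the labels the other mouse lists of these marks, and all mouse liver lists, came from different mice. Among naked mole-rats NMR30 had no heart H3K27ac list and NMR35 no heart H3K4me1 list. Liver H3K27ac was available for as many animals as liver H3K4me1, and liver H3K4me3 for 5, 2, 3 and 4. The labelled tissues could not be checked against marker genes, since no gene annotation of these builds was used. Whole organs were used, so a region may be marked in a fraction of the cells, and the peak lists cannot tell fewer marked cells from a weaker mark per cell.

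H3K4me1 is placed at enhancers by the methyltransferases KMT2C and KMT2D. Enhancers that drive transcription also carry H3K27ac, which the acetyltransferases EP300 and CREBBP deposit, while H3K4me3 is the mark of promoters. An enhancer with H3K4me1 alone is called primed or poised: some such enhancers were used earlier in development and others become active after a signal. TBX5 is a T-box transcription factor of the heart muscle and conduction system.

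Between 50.7% and 67.6% of heart primed enhancers were found in heart alone. Of 17115 naked mole-rat heart primed enhancers 50.7% had no liver region of any mark. The share was 57.1% of 36660 in Damaraland mole-rats, 51.5% of 35014 in guinea pigs and 67.6% of 33639 in the mouse. The liver H3K4me1 lists of the mouse were shorter, with 86486 to 113889 peaks against 119768 to 180145 in the other species. What list length does to these shares was not tested. Most of the primed enhancers that had a liver region overlapped liver H3K4me1, at 8153 of 8440 in naked mole-rats, 15262 of 15714 in Damaraland mole-rats, 15733 of 16989 in guinea pigs and 10428 of 10889 in the mouse. Liver H3K27ac lay at 3108, 5070, 6991 and 3764 of them. As a share of all heart H3K4me1 regions, the heart-only primed enhancers were 22.1%, 25.1%, 26.0% and 29.3%, and they held a smaller share of the marked bases, at 15.5%, 15.9%, 16.9% and 18.5%.

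**Figure D1:**
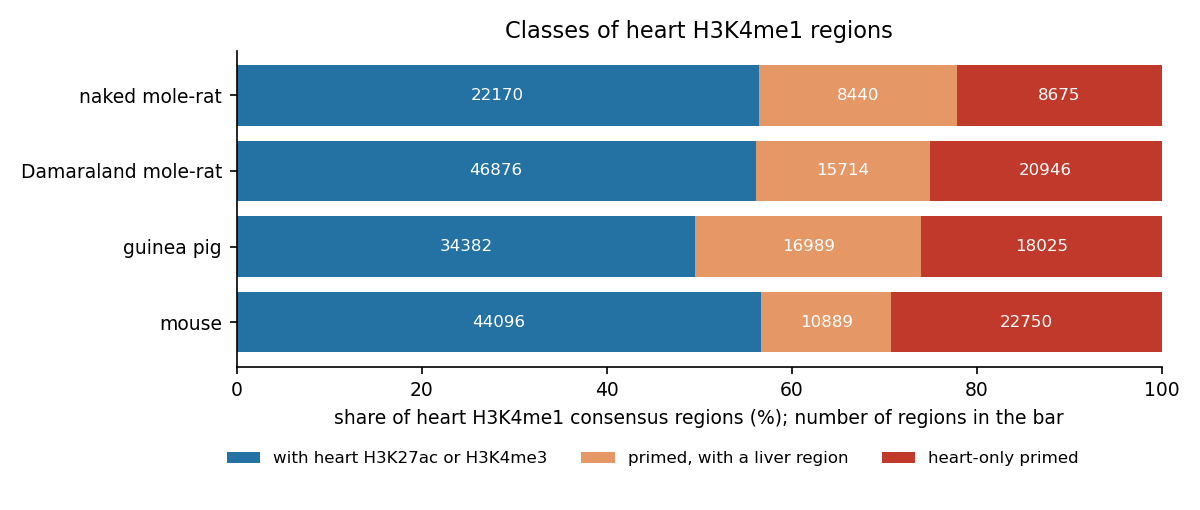
Share of heart H3K4me1 consensus regions (x axis, %) in each class for the 4 species, with the number of regions in each bar. Heart-only primed enhancers (red) range from 22.1% in naked mole-rats to 29.3% in the mouse.

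The median width of the regions was 658 bases in naked mole-rats, 625 in Damaraland mole-rats, 687 in guinea pigs and 757 in the mouse, and the middle 80% of regions lay between 422 and 1206 bases, 397 and 1150, 416 and 1319, and 444 and 1472. Heart primed enhancers that were also marked in liver were wider in each species, with medians of 777, 764, 867 and 1105 bases. Heart-only active enhancers, which carry H3K27ac and H3K4me1 without H3K4me3, were also wider, at 866, 814, 824 and 916 bases. Against liver-only primed enhancers the order was not the same across species: medians of these were 660, 764, 842 and 646 bases, so the heart regions were narrower in Damaraland mole-rats and the guinea pig, wider in the mouse and within 2 bases in naked mole-rats. The longest heart-only primed enhancers spanned 5460, 4449, 6996 and 8520 bases. The widths depended on the peaks entered: with all lists of a group kept to the length of its shortest one, the mouse median was 1268 bases.

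**Figure D2:**
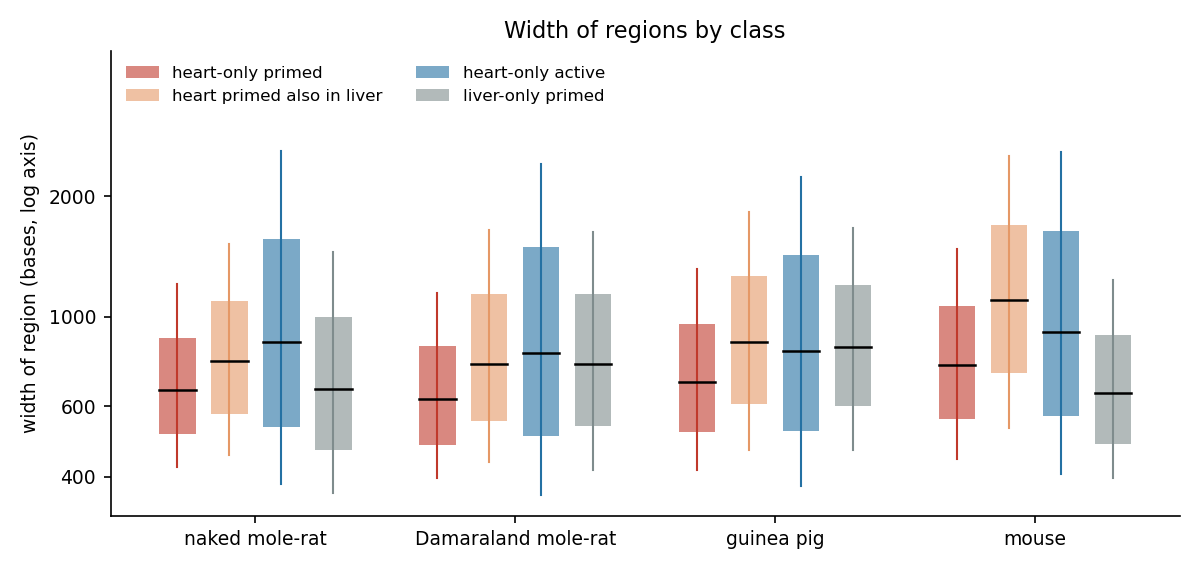
Width of regions (y axis, bases, log axis) by class and species. Boxes span the middle 50% of regions, black lines are medians and thin lines run from the 10th to the 90th percentile. Heart-only primed enhancers (red) have medians between 625 and 757 bases, below those of the active and shared classes in each species.

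Most of the regions rested on the smallest number of animals that the rule allowed. A peak was present in exactly 2 libraries at 83.5% of the regions in naked mole-rats, 66.0% in Damaraland mole-rats, 64.1% in guinea pigs and 57.3% in mice. Every library had a peak at 16.5% in naked mole-rats (1433 regions, 3 libraries), 2.07% in Damaraland mole-rats (434 regions, 5 libraries), 35.9% in guinea pigs (6476 regions, 3 libraries) and 1.74% in the mouse (396 regions, 5 libraries). Among heart primed enhancers also marked in liver, the share present in every library was larger, at 26.6%, 10.1%, 55.9% and 12.8%. Regions found in more animals were wider: in the mouse the median width was 616 bases with 2 libraries, 902 with 3, 1312 with 4 and 1796.5 with 5, and in Damaraland mole-rats it was 541, 780, 1076 and 1461.5. A consensus region grows as more peaks are merged into it, so width and number of libraries are not independent measures.

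Libraries differed in how many of the regions they showed. Among naked mole-rats NMR30, with 110851 peaks, had a peak at 91.1% of the regions, NMR31 (63590 peaks) at 75.3% and NMR32 (42957 peaks) at 50.1%. The guinea pig libraries were closer together, at 71.6%, 79.3% and 85.04%. In Damaraland mole-rats DMR2 (158541 peaks) reached 75.5%, DMR4 62.0%, DMR1 54.5% and DMR3 45.6%, whereas DMR11 (32893 peaks) reached 10.3%. In the mouse 33017 reached 87.3%, 17_3498 77.0%, 17_3500 48.7% and 17_3501 42.0%, whereas the pool (20521 peaks) reached 5.68%. DMR11 and the mouse pool thus stood apart with the shortest lists and contributed few of the regions. Without DMR11 the Damaraland mole-rat would have 20425 regions, and without the pool the mouse would have 22454. The lists with the most peaks decided more: without NMR30 the naked mole-rat would have 2225 regions and without NMR31 3638, without DMR2 the Damaraland mole-rat 12014, without GuineaPig8 or GuineaPig9 the guinea pig 10577 or 9738, and without 17_3498 or 33017 the mouse 14782 or 13281. With equal list lengths 4239 naked mole-rat, 4902 Damaraland mole-rat and 2160 mouse regions were left. The names of the lists of 33017 and DMR1 carry a tag that those of the other heart H3K4me1 lists lack and that no source explains.

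H3K4me1 enrichment at the regions was slightly lower than at heart-only active enhancers. It is given as the fold over background by the authors' peak caller. At each region the overlapping peak with the highest fold in a library was taken. In naked mole-rats the median fold at heart-only primed against heart-only active enhancers was 4.37 against 4.93 in NMR30, 4.66 against 5.07 in NMR31 and 4.73 against 5.09 in NMR32. In the mouse it was 5.64 against 6.43 in 17_3498, 5.19 against 5.70 in 17_3500, 5.22 against 5.55 in 17_3501, 4.65 against 5.40 in 33017 and 4.65 against 4.69 in the pool. The regions had the lower median in 16 of 16 libraries. The mean log2 difference was −0.13 ± 0.04 in naked mole-rats (SD, n = 3), −0.14 ± 0.04 in Damaraland mole-rats (n = 5), −0.22 ± 0.02 in guinea pigs (n = 3) and −0.13 ± 0.08 in the mouse (n = 5). With equal list lengths it was −0.075 in Damaraland mole-rats and −0.038 in the mouse. Heart primed enhancers also marked in liver had a higher median fold than heart-only ones in 16 of 16 libraries. That mean log2 difference, heart-only minus shared, was −0.05, −0.07, −0.11 and −0.12. The active and shared regions were also wider in each species, so they can hold more peaks, and folds were not compared within classes of width. Within a list, the median peak at a heart-only primed enhancer stood near the middle of all peaks by fold, between the 38.9th percentile in DMR11 and the 55.9th in NMR30, while that at a heart-only active enhancer stood between the 49.8th in DMR11 and the 73.5th in GuineaPig9.

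Widths just inside and just outside the overlap threshold were close. Regions that shared 40% to 50% of the shorter region with a region of another mark or of liver numbered 389 in naked mole-rats, 810 in Damaraland mole-rats, 647 in guinea pigs and 666 in the mouse, with median widths of 776, 711.5, 812 and 838.5 bases. Regions left out at an overlap of 50% to 60% numbered 595, 1102, 897 and 948, with widths of 793, 731.5, 822 and 889 bases. Most heart-only primed enhancers were far from this line: 84.3%, 86.7%, 88.1% and 90.9% shared no base with any such region.

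Absence of a consensus region is weaker than absence of any peak. At 44.0% of the regions of naked mole-rats, 52.8% of those of Damaraland mole-rats, 56.5% of those of guinea pigs and 56.9% of those of mice no single library showed heart H3K27ac, heart H3K4me3 or any liver mark. The mark seen most often in single libraries was heart H3K27ac, with 1 library at 28.1%, 27.7%, 23.8% and 23.2% of the regions. Liver H3K4me1 was seen in 1 library at 18.6%, 15.1%, 15.3% and 17.8%. Heart H3K4me3 was rare, with no library at 97.2%, 97.4%, 99.6% and 97.6%. In naked mole-rat liver, 1 H3K4me3 list, that of NMR30, overlapped 7.77% of the regions, and the list of NMR31 overlapped 0.035%.

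Heart-only primed enhancers lay nearer to heart active enhancers than liver-only primed enhancers did. Their median distance from edge to edge was 17154.5 bases in naked mole-rats, 10680 in Damaraland mole-rats, 12464 in guinea pigs and 15457 in the mouse. Within 5 kb of a heart active enhancer lay 28.5%, 35.0%, 32.7% and 28.1% of the regions, and 18.4%, 11.98%, 14.5% and 15.4% lay beyond 100 kb. A scaffold without any heart active enhancer held 431 naked mole-rat, 283 Damaraland mole-rat, 43 guinea pig and 4 mouse regions, which have no distance.

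Liver-only primed enhancers were made by the same rule with the tissues exchanged and so have no heart region of their own. They lay farther from heart active enhancers, at medians of 85082, 55590, 71646 and 39133 bases. Heart-only primed enhancers were thus nearer by 4.96 times in naked mole-rats, 5.21 times in Damaraland mole-rats, 5.75 times in guinea pigs and 2.53 times in the mouse. The mean log2 ratio of the medians was −2.14 ± 0.54 (SD, n = 4 species) and negative in 4 of 4 species. Heart active enhancers are heart regions, and the rule chose liver-only primed enhancers for overlapping none. This difference is therefore given with no test. Distances to liver active enhancers had the opposite order, with medians of 24817, 22365, 24024.5 and 39442.5 bases for heart-only and 13122.5, 12595, 14311 and 16655 for liver-only primed enhancers. That log2 ratio was 0.93 ± 0.22 (SD, n = 4 species) and positive in 4 of 4 species. It is likewise given with no test, since the rule chose heart-only primed enhancers for overlapping no liver region. With regions of both sets within 1 kb of a heart active enhancer left out, an alternative chosen after seeing the data, the ratio to heart active enhancers was −1.81.

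**Figure D3:**
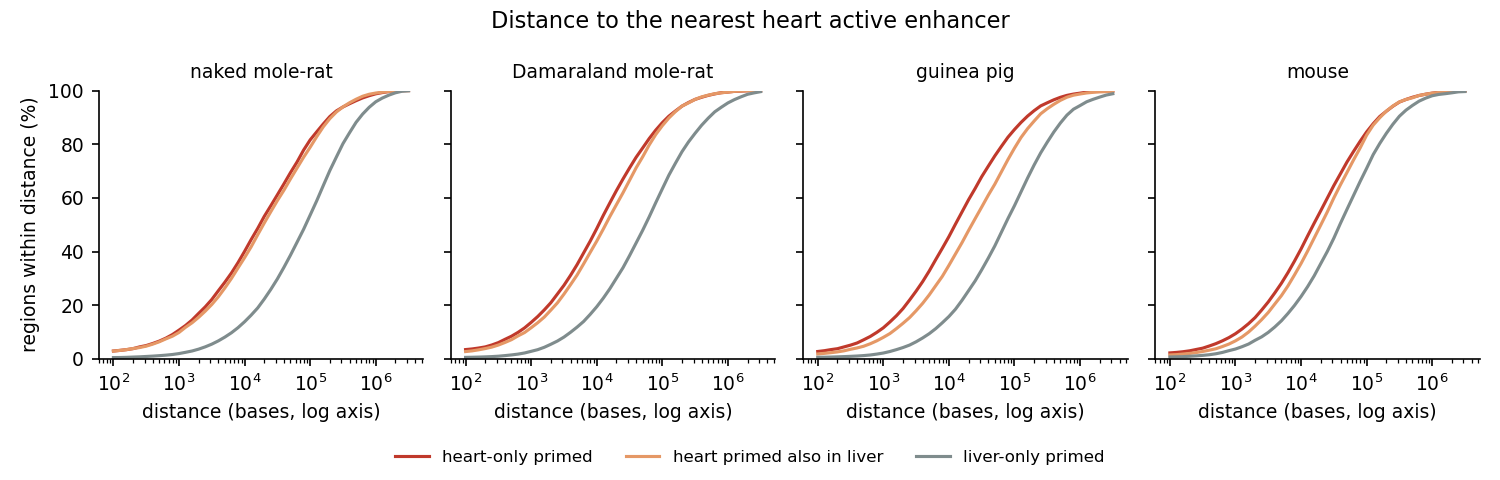
Cumulative share of regions (y axis, %) within a given distance of the nearest heart active enhancer (x axis, bases, log axis), 1 panel per species. At 5 kb the heart-only primed enhancers (red) stand between 28.1% and 35.0%, and the liver-only primed enhancers (grey) between 8.10% and 14.1%.

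Among heart primed enhancers, those found in heart alone were also nearer to heart active enhancers than those marked in liver too, whose medians were 19334, 13667, 22454 and 20058 bases. The gap was wider for active enhancers found in heart alone: medians to these were 39246, 23368, 28712 and 27391 bases for heart-only primed enhancers, against 86581.5, 54798, 82308 and 51104 bases for shared ones. Regions found in more animals lay nearer. In the mouse the median distance to a heart active enhancer was 17957 bases for regions in 2 libraries, 13660 in 3, 11723 in 4 and 9649.5 in 5, and in Damaraland mole-rats it was 11839.5, 9638, 8493 and 6748. The naked mole-rat medians were 18120 bases with 2 libraries and 10888 with 3, and those of the guinea pig 14423 and 9727.

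Heart-only primed enhancers also lay near each other. The nearest other heart H3K4me1 region was again a heart-only primed enhancer for 39.98% of the regions in naked mole-rats, 43.4% in Damaraland mole-rats, 44.1% in guinea pigs and 46.2% in the mouse, while such regions were 22.1%, 25.1%, 26.0% and 29.3% of all heart H3K4me1 regions. Conversely, a region with H3K4me3 was the nearest neighbour of 5.71%, 8.18%, 5.50% and 11.4%, and such regions were 10.6%, 14.4%, 10.5% and 19.0% of all. A region with H3K27ac and without H3K4me3 was also the nearest neighbour less often than its share of all heart H3K4me1 regions, at 36.0% against 45.9%, 33.8% against 41.7%, 32.8% against 39.0% and 29.7% against 37.8%. Among heart H3K4me1 regions, then, heart-only primed enhancers had an active enhancer next to them less often than the makeup of all regions gives, although they lay nearer to active enhancers than primed regions of liver. Runs of at least 5 heart-only primed enhancers separated by no more than 12.5 kb held 7.16%, 16.1%, 14.8% and 17.7% of them. The longest run in the mouse had 44 regions at 13:11951722-12099509 (GRCm38). In Damaraland mole-rats it had 70 at KN122397.1:4317672-4574905 (DMR_v1.0), in guinea pigs 42 at DS562950.1:5226369-5388678 (Cavpor3.0) and in naked mole-rats 15 at JH172627.1:333515-420464 (HetGla_1.0). Naked mole-rat scaffolds are shorter, and 76.2% of its regions lay on scaffolds reaching 1 Mb, against 94.0% in Damaraland mole-rats and 98.4% in guinea pigs.

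In the mouse, whose assembly has chromosomes, each of the 19 autosomes held between 7.14 and 12.4 heart-only primed enhancers per Mb. The X chromosome held 279 regions, 1.63 per Mb. All heart H3K4me1 regions were sparse there as well, with 0.978% of them on X, and heart-only primed enhancers were 36.7% of the X regions against 25.4% to 33.2% on the autosomes. No heart-only primed enhancer lay on Y, where 1 heart H3K4me1 region was found, and 6 lay on sequences outside the chromosomes.

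To measure how often a library outside the rule shows the mark, each heart H3K4me1 library was held out, the regions were defined from the others and the share with a peak in the held-out list was taken. In naked mole-rats 60.8%, 37.3% and 23.2% of heart-only primed enhancers had a peak in the held-out NMR30, NMR31 and NMR32. Guinea pig values were 54.0%, 61.1% and 66.9% for GuineaPig7, GuineaPig8 and GuineaPig9. Damaraland mole-rat values were 34.7% in DMR1, 51.7% in DMR2, 28.6% in DMR3 and 38.8% in DMR4, and 7.17% in DMR11. Mouse values were 60.6% in 17_3498, 38.2% in 17_3500, 31.5% in 17_3501 and 74.4% in 33017, and 4.22% in the pool. DMR11 and the pool, which have the shortest lists, were again low. The other libraries of the same animal still took part in the rule where there were any. In the mouse only the pool had other libraries. With all libraries of an animal held out together, NMR31 was at 41.6%, NMR32 at 26.8% and DMR2 at 55.3%.

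Heart-only active enhancers had a held-out H3K4me1 peak more often, with means of 63.3% against 40.4% in naked mole-rats, 55.4% against 32.2% in Damaraland mole-rats, 81.5% against 60.6% in guinea pigs and 57.9% against 41.8% in the mouse. Primed enhancers were lower in 16 of 16 libraries. The mean difference was −20.8 ± 3.27 percentage points (SD, n = 4 species; two-sided exact sign-flip p = 0.13, the smallest possible). Heart-only active enhancers were also wider in each species, and this difference was not measured within classes of width. Liver-only primed enhancers, which the rule chose for having no heart region, had a heart H3K4me1 peak at 8.79%, 7.24%, 13.9% and 8.77%, a background level given here with no test.

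Held-out heart H3K27ac libraries gave a measure of acetylation in a library that took no part in the choice. Other libraries of the same animal did take part, except for mice 33018 and 73317, which had none. Of the heart-only primed enhancers defined without the library, 28.3%, 25.4% and 24.2% had an H3K27ac peak in NMR31, NMR32 and NMR35. In Damaraland mole-rats 25.7% did so in DMR2, 24.0% in DMR4, 11.98% in DMR3 and 8.23% in DMR11, and 1.60% in DMR1. In guinea pigs 19.9%, 29.1% and 14.5% had a peak in GuineaPig7, GuineaPig8 and GuineaPig9. In the mouse the values were 27.2% in 73317, 12.6% in the pool, 6.42% in 6837, 6.37% in 33018, 4.77% in 17_36584 and 1.98% in 6839. The spread between animals of a species was therefore large in Damaraland mole-rats and the mouse. In Damaraland mole-rats the shortest list, DMR1 with 51446 peaks, had the lowest share and the longest, DMR2 with 139112, the highest. In the mouse the longest list, 73317 with 109724 peaks, was the highest, but the shortest, 6837 with 57663, stood above 17_36584 with 66161 and 6839 with 59032. In naked mole-rats the order was the opposite, with the shortest list, NMR31 at 93501 peaks, the highest and the longest, NMR35 at 116919, the lowest. With all libraries of an animal held out together the shares were 27.6% in NMR31, 24.6% in NMR32 and NMR35, and 27.2% in DMR2.

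Measured the same way, liver-only primed enhancers had a heart H3K27ac peak at a mean of 3.83% in naked mole-rats, 2.01% in Damaraland mole-rats, 2.69% in guinea pigs and 1.73% in the mouse, against 26.0%, 14.3%, 21.2% and 9.90% for heart-only primed enhancers. Naked mole-rats and guinea pigs have 3 heart H3K27ac libraries each, against 5 in Damaraland mole-rats and 6 in the mouse. Fewer libraries thus remained there to exclude acetylated regions, and the levels cannot be compared between species. The heart-only regions were higher in 17 of 17 libraries, by 15.3 ± 6.24 percentage points (SD, n = 4 species). The rule chose liver-only primed enhancers for having no heart region of any mark, so this difference is given with no test. Heart-only active enhancers were at 82.4%, 65.4%, 82.1% and 60.5%, higher than the primed ones in 17 of 17 libraries, as a set chosen for H3K27ac in the other libraries. With a consensus of at least 3 replicates, or of all libraries where fewer than 3 remained, the difference between heart-only and liver-only primed enhancers was 23.2 points.

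**Figure D4:**
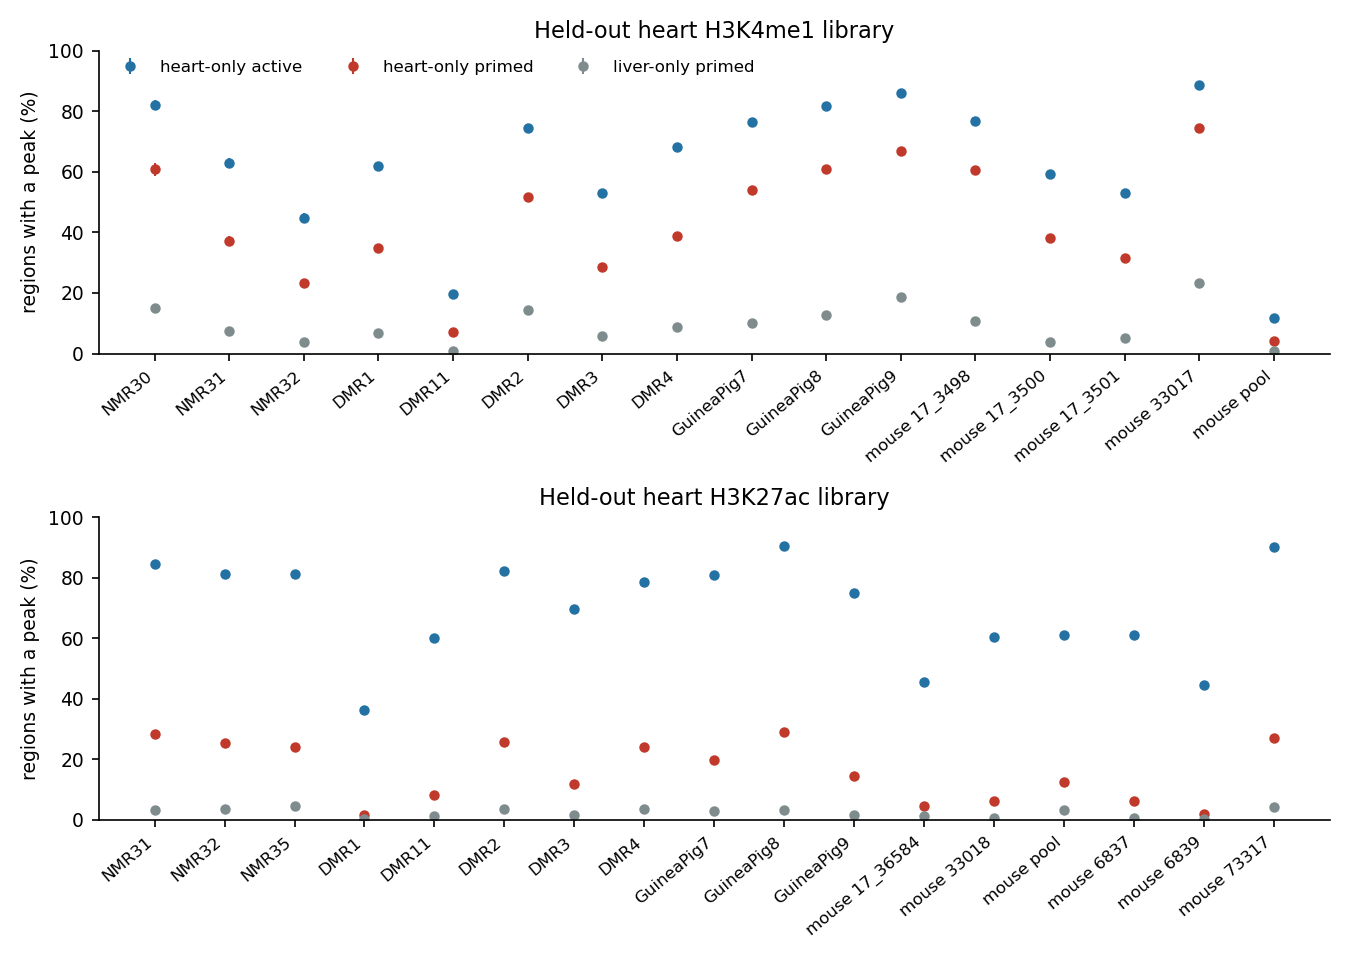
Share of regions with a peak in a held-out library (y axis, %) for each library (x axis), heart H3K4me1 above and heart H3K27ac below. Points are shares with Wilson 95% intervals. Heart-only primed enhancers (red) lie below heart-only active (blue) and above liver-only primed enhancers (grey) in each of the 16 and 17 libraries.

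Held-out acetylation was more frequent at regions near active enhancers. Within 5 kb of a heart active enhancer 39.5% ± 5.42 of naked mole-rat heart-only primed enhancers had a held-out H3K27ac peak (SD, n = 3), against 18.8% ± 1.57 beyond 50 kb. The same pair was 19.8% ± 13.3 and 9.57% ± 7.63 in Damaraland mole-rats (n = 5), 30.5% ± 10.4 and 13.9% ± 6.00 in guinea pigs (n = 3) and 15.8% ± 14.7 and 5.71% ± 5.38 in the mouse (n = 6). The nearer regions were higher in 17 of 17 libraries. Liver-only primed enhancers within 5 kb of a heart active enhancer were at 16.6%, 6.76%, 8.85% and 5.27%, and beyond 50 kb at 2.52%, 0.989%, 1.71% and 0.703%. In each of the 3 distance classes heart-only exceeded liver-only primed enhancers in 17 of 17 libraries, and so they did in each of 3 classes of width between 250 and 2000 bases.

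Acetylation in the held-out library was also more frequent at regions that more H3K4me1 libraries shared. The H3K4me1 list of the same animal counted among them where it existed. NMR35 had none, nor had any mouse sample apart from the pool. In Damaraland mole-rats 11.1% of regions with H3K4me1 in 2 libraries had a held-out H3K27ac peak, 17.4% with 3, 23.7% with 4 and 30.9% with 5 (means over 5 libraries). In the mouse the series was 7.44%, 10.98%, 15.5% and 21.5% (6 libraries). Naked mole-rat regions gave 23.1% with 2 libraries and 38.4% with 3, and guinea pig regions 16.3% and 29.1%. Width moved with the number of libraries and with this share: naked mole-rat regions of 250 to 500 bases were at 15.9% and those of 1000 to 2000 bases at 40.5%.

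Liver H3K4me1 held out in the same way was found at a small share of the regions, with means of 9.95% in naked mole-rats, 7.84% in Damaraland mole-rats, 13.8% in guinea pigs and 9.36% in the mouse. Heart-only active enhancers were at 11.04%, 8.21%, 11.4% and 10.4%. The primed regions were lower in 10 of 17 libraries and the mean difference was −0.036 ± 1.61 points (SD, n = 4 species; exact sign-flip p = 1), ranging over species from −1.09 to 2.33. The mouse libraries did not move together: the difference was −7.58 points in 85924 and between 0.906 and 1.52 in the other 3. Liver-only primed enhancers had a held-out liver peak at 58.7%, 57.6%, 77.4% and 58.4%.

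Liver transcription factors were found at a smaller share of heart-only primed enhancers than of all heart H3K4me1 regions, many of which are also marked in liver. The 16 liver libraries of 2 naked mole-rats and 2 Damaraland mole-rats targeted CEBPA, a regulator of liver metabolism, the pioneer factor FOXA1, the nuclear receptors HNF4A and RXRA, and HNF6, a factor of liver and bile duct development. They had a peak at between 0.506% and 3.46% of the heart-only primed enhancers, with a median of 1.29%. Over all heart H3K4me1 regions of the naked mole-rat the share was 11.7% for CEBPA of NMR30 and 8.68% for that of NMR35, 4.58% and 4.54% for FOXA1, 2.29% and 6.74% for HNF4A, and 4.47% and 9.5% for RXRA of the same animals. Over those of the Damaraland mole-rat it was 3.4% for CEBPA of DMR1 and 9.53% for that of DMR4, 2.2% and 2.5% for FOXA1, 5.05% and 11.4% for RXRA, 8.66% for HNF4A of DMR4 and 3.72% for HNF6 of DMR1. The heart-only primed enhancers were below this share in 16 of 16 libraries, and below heart primed enhancers also marked in liver, at 2.17% to 14.4%, in 16 of 16. The choice of the regions used liver marks of the same 4 animals, so these differences are given with no test. At liver-only primed enhancers the shares ran from 1.26% to 19.2%, with a median of 5.44%. CEBPA of DMR4 had a peak at 1.33% of heart-only and 19.2% of liver-only primed enhancers, and CEBPA of NMR30 at 3.46% and 15.8%. RXRA of DMR4 stood at 0.702% and 10.6%. HNF4A of NMR30 made the smallest difference, with 1.24% and 1.26%. Averaged over the libraries of an animal, the log2 ratio of heart-only to liver-only shares was −1.37 in NMR30, −1.83 in NMR35, −2.54 in DMR1 and −2.95 in DMR4. The mean was −2.17 ± 0.70 (SD, n = 4 animals), and 16 of 16 libraries were below 0. Heart-only active enhancers had a liver factor peak more often than heart-only primed ones in 16 of 16 libraries, with a median of 1.92%. The active regions were also wider, and liver factor shares were not compared within classes of width.

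TBX5, measured in the heart of DMR6 alone, was found more often at active than at primed enhancers, and its shares at heart-only and liver-only primed enhancers depended on the setting. A TBX5 peak lay at 4.66% of the heart-only primed enhancers of the Damaraland mole-rat (977 regions; Wilson 95% interval 4.39% to 4.96%), at 4.66% of the liver-only primed enhancers (4.46% to 4.87%) and at 4.58% of heart primed enhancers also marked in liver. The difference between heart-only and liver-only primed enhancers was 0.0057 percentage points, with a 95% interval by Newcombe's method from −0.34 to 0.36. It was 0.68 points with an overlap of 1 base, 0.42 with a consensus of 3 replicates, 0.56 at a −log10 q of at least 4 and 1.60 with equal list lengths, heart-only above liver-only in each, and −0.14 without the H3K4me1 list of DMR4. Heart-only active enhancers were at 11.9% (11.4% to 12.4%), and over all heart H3K4me1 regions the share was 7.93%. The active regions were also wider, and shares by width are given below. There is 1 TBX5 library, so no test between animals was possible, and the intervals cover counting error only. Of the 139418 TBX5 peaks, 0.704% lay at heart-only primed enhancers.

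**Figure D5:**
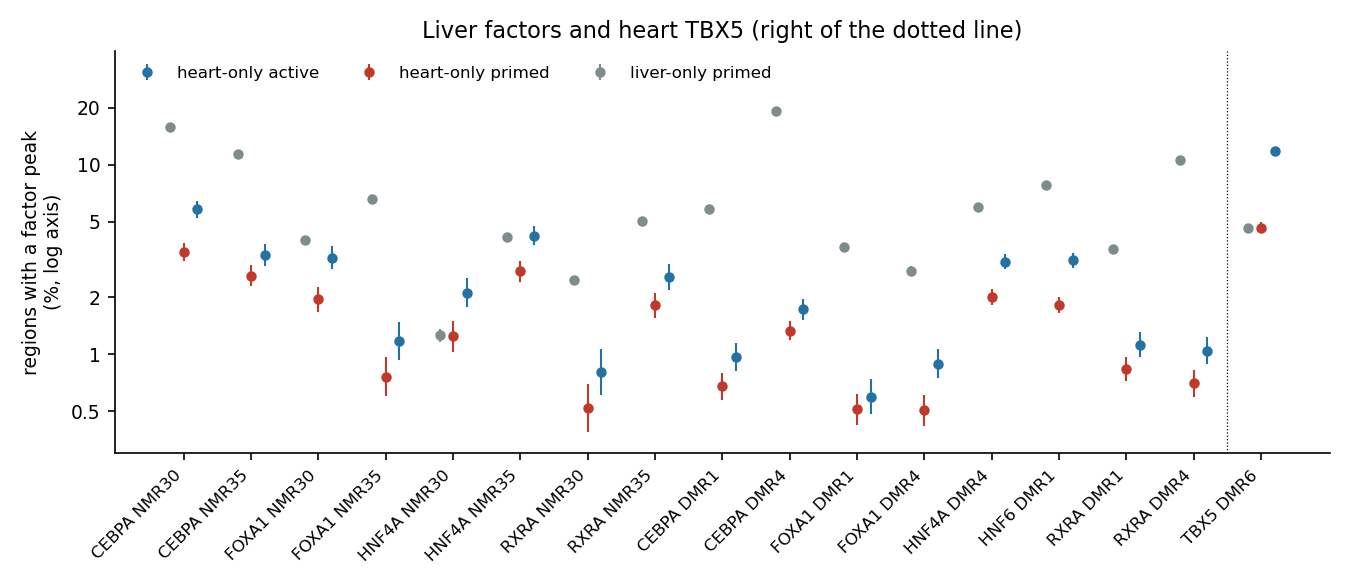
Share of regions with a peak of a transcription factor (y axis, %, log axis) for 16 liver libraries and, right of the dotted line, TBX5 of heart. Points carry Wilson 95% intervals. Heart-only primed enhancers (red) range from 0.506% to 3.46% for the liver factors and stand at 4.66% for TBX5, as do liver-only primed enhancers (grey).

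Within each of 3 classes of width the TBX5 share was higher at heart-only than at liver-only primed enhancers. Heart-only primed enhancers of 250 to 500 bases had a TBX5 peak at 3.48% (3.04% to 3.97%), against 2.50% (2.19% to 2.85%) of liver-only primed enhancers. For 500 to 1000 bases the pair was 4.32% (3.97% to 4.71%) and 3.87% (3.60% to 4.15%), and for 1000 to 2000 bases 7.69% (6.79% to 8.70%) and 6.39% (5.96% to 6.86%). In each of these wider classes the intervals of the pair overlapped. Heart-only active enhancers of these widths were at 4.11% (3.49% to 4.84%), 6.13% (5.49% to 6.83%) and 14.0% (13.0% to 15.2%). In the narrowest class the intervals of heart-only active and heart-only primed enhancers overlapped. The share of heart-only primed enhancers was higher at regions found in more animals, from 3.92% with 2 libraries to 5.35% with 3, 7.13% with 4 and 9.45% with 5. It was 4.12% (3.68% to 4.60%) within 5 kb of a heart active enhancer, 4.69% between 5 and 50 kb and 5.30% (4.68% to 6.00%) beyond 50 kb, the opposite order to that of held-out H3K27ac.

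The regions with the highest mean H3K4me1 fold among those present in every library, the longest and the most distant region of each species are given as examples. Some of them adjoined a heart promoter or a heart active enhancer without meeting the overlap that excludes a region. In the mouse (GRCm38) the highest lay at 17:32376494-32378330, with folds of 16.0, 11.2, 10.2, 8.89 and 5.11 in 17_3498, 17_3500, 17_3501, 33017 and the pool, 4557 bases from a heart active enhancer. The second, at 17:34038033-34041922, had 11.4, 13.2, 8.79, 9.49 and 8.28, and the third, at 9:48830036-48834470, had 9.66, 10.1, 8.68, 11.03 and 5.62. The pool was the lowest of the 5 samples at each of the 3. Single libraries of other heart marks or of liver had a peak at all 3 of these regions, 1 at the first, 3 at the second and 6 at the third. The third region lay 0 bases from a heart promoter. The longest mouse region, at 4:151836091-151844610, spanned 8520 bases and had no peak in the pool. The most distant, at X:85576177-85576654, lay 7993991 bases from a heart active enhancer and 1203 bases from a heart promoter.

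In guinea pigs (Cavpor3.0) the highest region lay at DS562931.1:2173474-2174920, with folds of 11.9, 10.5 and 10.8 in GuineaPig7, GuineaPig8 and GuineaPig9. Those at DS563164.1:88086-88986 and DS562873.1:39404763-39406658 had mean folds of 10.2 ± 3.19 and 10.0 ± 1.18 (SD, n = 3). The longest, 6996 bases at DS562859.1:34194747-34201742, had an H3K27ac peak in each of the 3 heart libraries but no consensus H3K27ac region that excluded it. That region lay 0 bases from a heart promoter. The most distant region, at DS562881.1:2809405-2810158, lay 15415952 bases from a heart active enhancer, with H3K27ac in 2 single heart libraries.

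In naked mole-rats (HetGla_1.0) the highest was JH169543.1:575563-577856, with folds of 8.66, 8.88 and 6.21 in NMR30, NMR31 and NMR32, followed by JH173133.1:436696-438496 with 5.75, 8.23 and 8.40 and JH167040.1:1193810-1197156 with 7.77, 6.42 and 8.02. No library was the highest at all 3. Each of them had H3K27ac in 1 heart library. The first lay 47397 bases from a heart active enhancer, the second 548 and the third 0. The longest was JH170413.1:1624286-1629745, with 5460 bases. The most distant, JH173571.1:7760788-7761740, lay 4914427 bases from a heart active enhancer and had no peak of another mark or of liver in any library.

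In Damaraland mole-rats (DMR_v1.0) the highest was KN122248.1:6547095-6549317, with folds of 4.09, 6.25, 13.0, 9.94 and 5.06 in DMR1, DMR11, DMR2, DMR3 and DMR4, a spread of 3.72 (SD, n = 5) around a mean of 7.67. This region lay 247 bases from a heart active enhancer and 1630 bases from a heart promoter. KN124375.1:353267-355402 and KN120575.1:8288504-8291529 followed with 7.51 ± 1.12 and 7.45 ± 1.62 (SD, n = 5). The most distant, KN123659.1:7631256-7631868, was seen in DMR1 and DMR2 alone and lay 5428063 bases from a heart active enhancer. The highest TBX5 folds at heart-only primed enhancers were 29.3 at KN122182.1:3547137-3547660, 28.0 at KN120969.1:8591857-8592396 and 24.4 at KN121670.1:2996269-2998834. The first and the second had H3K4me1 in 2 of 5 libraries, while the third had it in each of the 5, with folds of 5.58, 6.52, 6.08, 6.46 and 6.35. They lay 68688, 385674 and 34974 bases from the nearest heart active enhancer.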

How the data were processed

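The deposited data were 1 peak list per library, 116 in all (99 histone, 17 factor), and 44 samples without a list, 35 of them inputs, were left out. In 1 sample the title gave another species than the organism field, so it has no group. Peaks were called with MACS2, per the submitters' processing notes; its version and the aligner: not given in the sources used here. Each deposited peak carries a fold over background, a linear ratio made by the authors. The authors' −log10 of the p-value and of the q-value stand beside it, and the smallest −log10 q was 1.30, a q-value of 0.05. The deposited score was not used. Builds were GRCm38, HetGla_1.0, DMR_v1.0 and Cavpor3.0, per the names of the deposited lists; factor lists named the species only. Read depth is unknown, so precision was judged from the spread between animals.

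From the lists, consensus regions needed peaks of 2 animals overlapping by at least 50% of the shorter, merged. Heart active enhancers had H3K27ac and H3K4me1 without H3K4me3. Distances run from edge to edge on 1 scaffold, and positions count from 1. A held-out library alone was left out of its group and the regions were defined again. Means over species were compared with two-sided exact sign-flip tests. A planned one of liver factor shares is not given, because the rule used liver marks of the same animals. Planned ones of held-out H3K27ac and of distances are not given either, because the rule chose the liver-only set for having no heart region. Wilson 95% intervals of shares cover counting error alone. Python 3.11.15, NumPy 2.4.6, pandas 2.3.3, SciPy 1.17.1 and Matplotlib 3.10.9 were used, and the region rules were tested on simulated data. Alternatives were the overlap, the number of replicates, a −log10 q of at least 4, equal list lengths, scaffolds reaching 1 Mb, exclusion by any single liver library, other distances, and leaving out each library. The regions, classes and named places were chosen with earlier results of these data known. Named places were, per species, the 3 with the highest mean fold among regions present in every library, the longest, the most distant from a heart active enhancer, and in the Damaraland mole-rat the 3 under the highest TBX5 folds. A planned set of genes was not analysed here, since no annotation of these builds was used.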

Additional observations from a re-analysis of the deposited data

Results flagged for a closer look

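Of 15 groups of 4 to 10 libraries examined, 1 held a library far from the rest, and chance alone gives about 1 in 20. When liver H3K4me1 libraries of the Damaraland mole-rat were held out, 15.5% of heart-only primed enhancers had a peak in DMR2, against 4.43% to 7.13% in the other 4 animals. The DMR2 list was the longest of the 5, with 165394 peaks. Heart-only active enhancers were also highest there, at 16.6%, and so were liver-only primed enhancers, at 76.3%. In mouse liver H3K4me1, 85924 stood apart without passing that limit: 17.5% of heart-only primed enhancers overlapped its held-out list, the longest of the 4, and the other 3 ranged from 5.26% to 7.73%. Heart-only active enhancers were at 25.03% there and between 4.36% and 6.63% elsewhere, while liver-only primed enhancers were at 50.5%, the lowest of the 4.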

How the results depend on the processing

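Over 574 values computed under alternatives, 521 stayed within their limits, 53 moved and none changed direction where a direction was called. No direction was called for counts, widths, folds or heart-only minus liver-only TBX5 shares. The limit was 1.5 times for counts, 1 SD between libraries for widths and folds, and the Wilson interval for TBX5. The distance, held-out and liver factor comparisons kept their sign under each alternative run. The log2 distance ratio lay between −2.42 and −1.81 over 9 alternatives and between −2.24 and −2.12 over 51 libraries left out in turn. Within single species it ran from −2.93 in guinea pigs to −1.31 in the mouse with libraries left out. The held-out H3K4me1 difference lay between −21.2 and −18.1, and the held-out H3K27ac difference between 14.4 and 23.2, over 7 alternatives each. Leaving out single libraries gave −21.5 to −20.2 and 15.2 to 16.2. The liver factor ratio lay between −2.80 and −2.19 over 6 alternatives and between −2.29 and −2.07 over 41 libraries. Means with a library left out changed only through the species of that library, which keeps their ranges narrow. With a replicate block, in which all libraries of 1 animal were held out together, the held-out differences were −18.1 and 15.1 percentage points over 14 and 15 libraries; the heart libraries of DMR1 and DMR4 were not included, because DMR liver H3K4me3 then had 1 library. No value of the held-out H3K4me1 difference exists without a naked mole-rat or guinea pig H3K4me1 library, nor of the H3K27ac difference without one of their H3K27ac libraries, since 2 must remain.

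Numbers and widths depended on thresholds. A consensus of at least 3 replicates, or of all libraries where fewer were at hand, left 2333 naked mole-rat, 10231 Damaraland mole-rat, 9842 guinea pig and 13121 mouse regions, with median widths of 888, 809, 942 and 1012 bases and a guinea pig log2 fold difference of −0.24. A −log10 q of at least 4 left 3269, 12200 and 10378 in the first 3 species, with widths of 829, 745 and 859 bases, and 883 bases in the mouse. The log2 fold difference was then −0.092 for naked mole-rats and −0.17 for guinea pigs. Equal list lengths, set by the shortest list of a group, left 4239 naked mole-rat, 4902 Damaraland mole-rat and 2160 mouse regions, with widths of 775, 920 and 1268 bases and log2 fold differences of −0.075 in Damaraland mole-rats and −0.038 in mice. The TBX5 share was 7.22% with an overlap of 1 base, 6.00% with 3 replicates, 2.90% at the stricter q and 6.77% with equal lists. Heart-only minus liver-only TBX5 shares lay between 0.020 and 1.60 points over 6 alternatives and between −0.14 and 0.24 with single libraries left out; it was negative without the H3K4me1 list of DMR3 (−0.13) or DMR4 (−0.14) or the H3K4me3 list of DMR2 (−0.0083). Leaving out 1 library moved the numbers between 2225 and 10369, 12014 and 23712, 9738 and 21285, and 13281 and 25839 (same species order), and the guinea pig fold difference between −0.25 and −0.22. The cause of these shifts was not tested, other than that fewer peaks enter under the stricter settings. Read depth is unknown.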
